A study of Drosophila melanogaster with 3 samples.

Results

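Scalloped binding deep inside introns was examined at 2332 of the 10553 reproducible peaks mapped for this transcription factor in fly embryos, or 22.1% of them. A peak belonged to this set when its summit, the base of highest signal, lay inside an annotated gene, outside every exon, and more than 3000 bp from the nearest annotated transcription start site of any gene. Position alone chose the peaks, and their strength and sequence played no part. Each summit is counted as 1 peak throughout, although some peak intervals hold several summits. With overlapping intervals merged, the 2332 summits lay in 2074 separate intervals. The study profiled whole *Drosophila melanogaster* embryos of mixed sex, 4 to 20 h old, by chromatin immunoprecipitation and sequencing (ChIP-seq). The flies were a single transgenic line that stably expresses Scalloped (sd) with GFP at its C terminus, and an antibody against GFP recovered the fusion protein. The 3 samples are biological replicates of this single group, so no genotype, treatment or stage was compared. The sources used here do not say whether the native sd gene was intact, what drives the transgene or how many embryos were pooled. The list of reproducible peaks, made with the irreproducible discovery rate (IDR), and the 3 replicate lists were used on arms 2L, 2R, 3L, 3R, 4 and X. Each list has its own scale of signal values, which the authors' software assigned, so strength is given as a rank within a list, where rank 1 is strongest. The sequencing depth is unknown. In whole embryos, the number of cells in which a site was bound and how fully it was bound in each of them cannot be told apart.

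Scalloped is the fly member of the TEA-domain family, whose vertebrate members are the TEAD proteins. It binds DNA but needs partners to activate genes: Yorkie, the coactivator that the Hippo growth-control pathway restrains, and Vestigial, its partner in the wing and in muscle, while Tgi is a partner in repression. TEA-domain proteins recognise the letters CATTCC, the core of the muscle element first described in vertebrates. Long introns of fly genes hold many enhancers, which act on a start site at a distance, and not always on the start site of the gene they lie in.

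The strongest far intronic peaks show what the DNA under such summits looked like. The summit base and 100 bases to either side are given for 5 of the 6 strongest hosts, on the plus strand of dm6, 5′ to 3′, from the RefSeq genome of the same assembly. Capitals mark CATTCC or its reverse complement GGAATG. The peak in kibra had 1 core near its centre, that in hth had 2 in the same orientation a few bases apart, and that in ftz-f1 had none. Mef2, the second strongest host, whose peak had no core, is left out, since sequence was not printed for every arm.
kibra, chr3R:14714230-14714430: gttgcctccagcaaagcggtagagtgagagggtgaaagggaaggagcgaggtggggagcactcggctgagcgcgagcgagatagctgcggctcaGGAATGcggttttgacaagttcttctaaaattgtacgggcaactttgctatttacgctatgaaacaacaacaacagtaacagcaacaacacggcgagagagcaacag
sima, chr3R:30102894-30103094: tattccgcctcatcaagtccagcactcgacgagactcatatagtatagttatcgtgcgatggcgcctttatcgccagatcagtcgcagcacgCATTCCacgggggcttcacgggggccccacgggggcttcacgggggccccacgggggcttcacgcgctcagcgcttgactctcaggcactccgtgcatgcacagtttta
ftz-f1, chr3L:18759284-18759484: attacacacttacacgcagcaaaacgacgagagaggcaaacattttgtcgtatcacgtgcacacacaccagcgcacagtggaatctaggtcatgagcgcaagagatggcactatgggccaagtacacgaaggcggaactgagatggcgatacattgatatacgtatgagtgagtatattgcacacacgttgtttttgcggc
nmo, chr3L:8024352-8024552: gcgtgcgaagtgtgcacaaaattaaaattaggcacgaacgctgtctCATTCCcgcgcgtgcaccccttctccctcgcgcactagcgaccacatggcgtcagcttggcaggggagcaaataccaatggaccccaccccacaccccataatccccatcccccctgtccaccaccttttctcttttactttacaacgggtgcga
hth, chr3R:10544190-10544390: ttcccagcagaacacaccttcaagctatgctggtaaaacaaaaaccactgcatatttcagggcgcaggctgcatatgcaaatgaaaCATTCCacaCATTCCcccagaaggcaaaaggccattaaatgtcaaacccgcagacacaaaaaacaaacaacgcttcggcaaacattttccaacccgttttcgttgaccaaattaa

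A further 12 strong hosts with a core are shown as 30 bases around the core nearest the summit. They are written on the strand that reads CATTCC, 5′ to 3′, with each core in capitals, so that the letters beside the core can be compared between genes. The coordinates are on dm6. CG8888 and spin, whose peaks were as strong and also held a core, are left out for the same reason as Mef2. The sequence in InR holds 2 copies of the core in a row.
Gprk2, chr3R:31420823-31420852: atagctgccataCATTCCagacgacttcgc
InR, chr3R:21586622-21586651: tatatttcggggCATTCCgCATTCCaagca
ds, chr2L:701923-701952: tttgagcgctcaCATTCCataaatgccagc
Lasp, chr3L:16694047-16694076: catcctccatcgCATTCCgatttcgagtgg
dpp, chr2L:2433880-2433909: cctgtttgacggCATTCCgtggcaatcaac
klar, chr3L:513886-513915: aacacttgtctaCATTCCtgagcatatgat
CG46467, chr3R:9932730-9932759: taaataccccctCATTCCgcacacccccgc
CG32486, chr3L:3059148-3059177: aaaacgggcccgCATTCCacacaactgaat
Myo10A, chrX:10935702-10935731: gttttatagggcCATTCCgacttctcagct
crp, chr2L:16281622-16281651: gttgcaacaccaCATTCCacggggaaacaa
cindr, chr3R:30812018-30812047: taaactataaagCATTCCatatcaatgaac
Dmtn, chr3R:6394096-6394125: tacatttctataCATTCCtggcatttcttg

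Scalloped summits deep in introns held a TEA core far more often than the DNA beside them. CATTCC lay within 100 bp of the summit, on either strand, at 540 far intronic peaks, or 23.2% (95% exact Clopper-Pearson interval 21.5 to 24.9), against 9.10% (8.17 to 10.1) of 3518 windows of the same length 1000 to 1200 bp to either side. The intervals here and below cover counting error only, and treat neighbouring peaks as independent. Of the same windows around all IDR summits, 19.8% held the core. Among as many top peaks of each replicate as the IDR list holds, the share at far intronic summits was 24.1% in replicate 1, 22.5% in replicate 2 and 23.2% in replicate 3, against 8.44%, 8.64% and 8.66% in their flanks. No replicate's flanks came near its summits. The mean difference was 14.7 ± 0.897 percentage points (SD, n = 3), with an exact two-sided permutation p of 0.25 over the replicates. That p is the smallest that 3 replicates can give, so no comparison of this kind could pass 0.05. The far intronic share was also above that of other intronic summits and of promoter summits. Summits in introns more than 500 and up to 3000 bp from a start site, called near introns here, held the core in 19.7% of cases (18.2 to 21.4), and summits within 500 bp of a start site in 15.7% (14.6 to 16.9). Far introns exceeded near introns by 4.06, 3.55 and 3.64 percentage points in replicates 1, 2 and 3, and promoters by 8.23, 8.12 and 8.10 points (exact permutation p = 0.25 for each, 3 of 3 replicates higher). They did not exceed intergenic summits, at 25.8% (23.5 to 28.2): the far intronic minus the intergenic share was -2.07, -1.49 and -1.11 points in replicates 1, 2 and 3 (exact permutation p = 0.25).

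**Figure D1:**
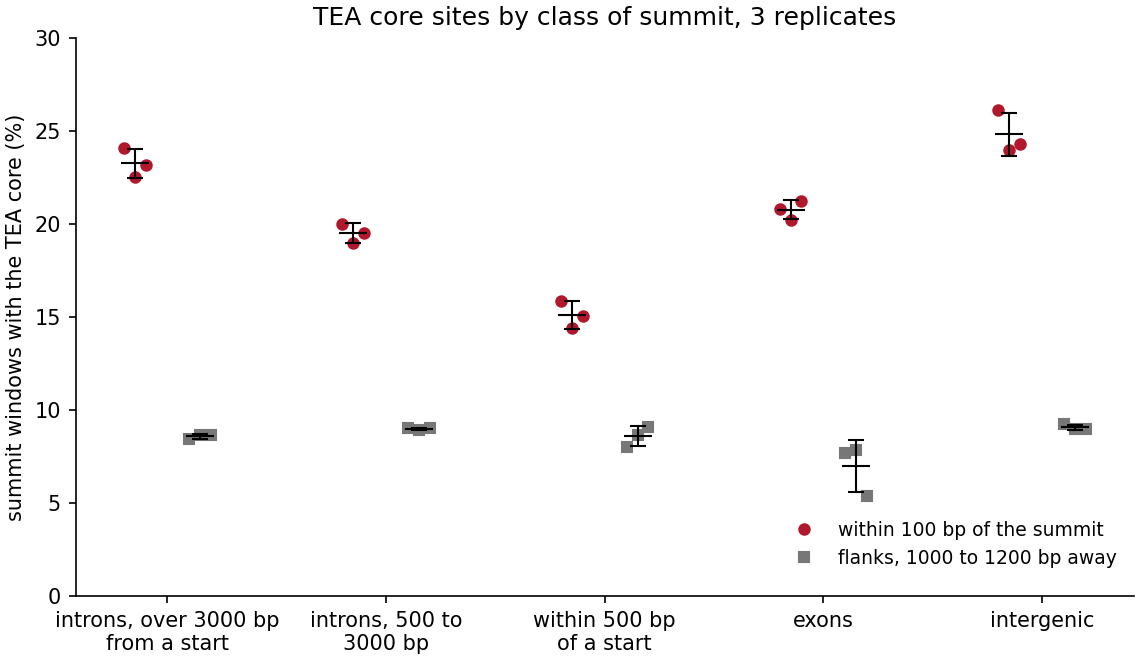
Percent of summit windows that hold CATTCC on either strand, by class of summit, in the top peaks of each replicate. Circles are windows within 100 bp of the summit and squares are flanks, 1 point per replicate, with the mean and SD as black bars. Far intronic summits lie at 22.5 to 24.1%, above near introns and promoters and below intergenic summits, and all flanks lie lower.

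The cores sat under the summits. The core nearest the summit was a median of 27.5 bp away among the 540 peaks with one, within 25 bp in 250 of them (46.3%) and within 50 bp in 388 (71.9%). Core density reached 2.50 and 2.28 sites per kb in the 25 bp bins on either side of the far intronic summit, as the plot of core density around the summit shows. The cores had no preferred direction relative to their host gene, with 308 of 639 sites on the host's strand, or 48.2%. The GC content of far intronic windows was 42.0%, against 41.3% in their flanks, so base composition differed little between the windows compared.

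The letters beside the core differed between summits and flanks. Of the 639 cores at far intronic summits, 33.8% (30.1 to 37.6) read GCATTCC and 32.1% (28.5 to 35.9) read ACATTCC, against 19.1% (15.1 to 23.7) and 22.6% (18.3 to 27.4) of the 345 cores in their flanks. The form TCATTCC made up 10.02% (7.80 to 12.6) of cores at summits and 23.2% (18.8 to 28.0) of cores in flanks. The replicates lay close together, with GCATTCC at 33.0%, 33.9% and 34.5% of cores and TCATTCC at 10.9%, 10.8% and 10.8% in replicates 1, 2 and 3. After the core, A was the most frequent letter: CATTCCA made up 42.7% (38.9 to 46.7) of cores at summits and 34.5% (29.5 to 39.8) in flanks. Those 2 intervals overlap. CATTCCC made up 18.8% (15.8 to 22.0) of cores at summits and 29.0% (24.3 to 34.1) in flanks. Each form contains CATTCC. Counted by windows instead of cores, 8.79% of far intronic windows held GCATTCC, 8.53% ACATTCC, 5.40% CCATTCC, 2.70% TCATTCC, 10.8% CATTCCA and 4.55% CATTCCC. Of the same windows around all IDR summits, 7.70% held GCATTCC, 7.37% ACATTCC, 3.83% CCATTCC, 2.44% TCATTCC, 8.70% CATTCCA and 3.71% CATTCCC.

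**Figure D2:**
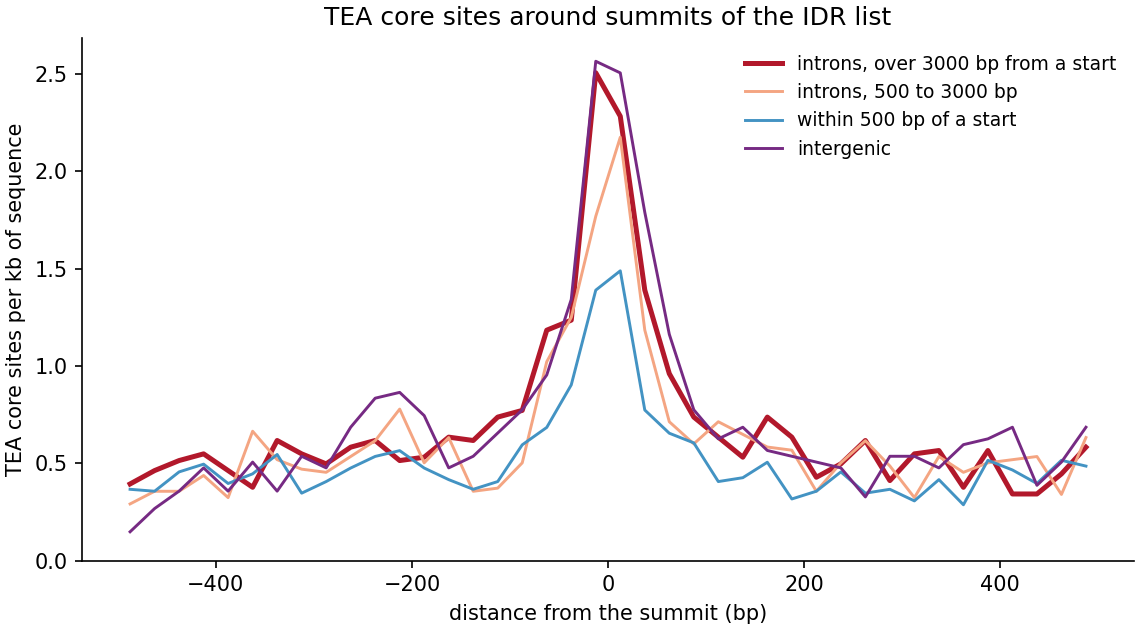
Density of CATTCC sites, in sites per kb of sequence, against distance from the summit in bp, for summits of the IDR list in 4 classes (25 bp bins, both strands). The curve for far introns rises at the summit to 2.50 sites per kb, close to the intergenic curve and above the promoter curve.

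Stronger far intronic peaks held the core more often. Split into 5 equal groups by signal value, 33.8% (29.5 to 38.3) of the strongest group held a core, then 25.5%, 21.7% and 16.5%, and 18.2% (14.8 to 22.1) of the weakest group. The replicates gave nearly the same ends, with 33.8%, 34.1% and 34.2% in the strongest group of replicates 1, 2 and 3 and 17.8%, 17.8% and 18.0% in the weakest. Of the 100 strongest peaks 46 held a core. The gap to near introns was largest among strong peaks: when all IDR peaks were split the same way, 35.4% of far intronic and 26.4% of near intronic summits held one in the strongest group, and in the weakest 17.7% of far intronic and 16.1% of near intronic summits did. In the replicates that gap averaged 10.2 percentage points in the strongest group and 2.17 points in the weakest, with 3 of 3 replicates higher in both and an exact permutation p of 0.25 for each.

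Most far intronic peaks had no exact core. Of the 2332, 459 had 1 core, 68 had 2, 13 had 3 or more and 1792 had none. AATTCC, which differs from the core in its first letter, was found at 24.4% of far intronic summits (22.6 to 26.2) and 11.5% of flanks, a ratio of 2.13. In each replicate the ratio was between 1.91 and 2.06. Its nearest copy lay a median of 31 bp from the summit. The variant was present at 26.4% of the summits without a core, against 11.2% of flank windows without one. Either form was present at 1013 far intronic peaks, or 43.4%, against 19.2% of flanks and 39.6% of near intronic summits. Among the 100 strongest far intronic peaks 68 had either form. The remaining 1319 peaks, or 56.6%, had neither within 100 bp. Unlike the core, AATTCC was about as frequent at near intronic summits, at 24.3%.

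Far intronic peaks more often held several cores than near intronic or promoter peaks did. A pair or more stood at 81 far intronic peaks, or 3.47%, against 2.60% of near intronic and 1.64% of promoter summits. The far intronic share was higher than near introns by 0.765, 1.05 and 0.942 percentage points in replicates 1, 2 and 3 (exact permutation p = 0.25). Of 99 pairs of neighbouring cores at far intronic summits, 78 pointed the same way, or 78.8% (69.4 to 86.4), with 12 convergent and 9 divergent. Replicates 1, 2 and 3 gave 78.1%, 75.3% and 76.3%. The same orientation also prevailed in near introns, with 48 of 70 pairs, and in the flanks, with 18 of 25 pairs, so it was not particular to far introns or to bound windows. Within 20 bp of each other, 42 far intronic pairs pointed the same way and 4 pointed in opposite directions. The spacing most often seen was 5 bp from start to start, in 13 pairs, where CATTCCATTCC holds 2 cores that share a C. Without those pairs 65 of 86 pointed the same way, and 22.7% of far intronic peaks had a core when the 13 peaks with such an overlap were left out. The most at any far intronic peak, 6 copies, lay within 100 bp of a summit in org-1, a T-box factor of muscle founder cells, all on 1 strand and 3 of the gaps at 6 bp. Examples of close pairs from peaks of different strength are given here, chosen after their spacings were known, on the strand that reads CATTCC, 5′ to 3′, with each core in capitals and dm6 coordinates. The spacing from start to start is 7 bp in CG6983 and Atf3, 12 bp in Pvf3 and 6 bp in pigs and org-1.
CG6983, chr3L:8446370-8446398: tgcgcagaCATTCCaCATTCCaatcgttg
Atf3, chrX:1271397-1271425: attccccgCATTCCcCATTCCtatctgaa
Pvf3, chr2L:7125337-7125370: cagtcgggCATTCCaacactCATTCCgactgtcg
pigs, chrX:6615741-6615768: ccccatttCATTCCCATTCCcattgctt
org-1, chrX:8449555-8449582: agtagtccCATTCCCATTCCCATTCCca

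Other factors' letters were searched in the same windows to see what far introns share with other summits, with 22 motifs in all, on both strands. The TEA core in its longer form ACATTCCA, which contains CATTCC, had the highest ratio of summits to flanks, with 3.69% of far intronic summits and 0.796% of flanks (ratio 4.63, between 4.14 and 5.83 in the replicates). A permutation of the letters of the core, CTACTC, was no more frequent at far intronic summits (3.47%) than in flanks (3.84%). The GAGA-factor letters GAGAG stood at 26.1% (24.3 to 27.9) of far intronic summits and 20.8% of flanks, and at 29.4% (27.6 to 31.3) of near intronic summits. The forkhead letters TGTTTAC stood at 7.42% against 4.97% of flanks, a ratio of 1.41 to 1.52 in the replicates. The AP-1 letters TGACTCA stood at 3.04% of far intronic summits and 2.27% of flanks. Far intronic summits held some other letters less often than their flanks, such as the homeodomain core TAATTA at 11.4% (10.1 to 12.7) against 14.6% (13.5 to 15.8). The POU-domain octamer ATGCAAAT stood at 3.22% (2.54 to 4.01) against 4.09% (3.46 to 4.80), with intervals that overlap. GATAA, the letters of GATA factors, was near its flank share at far intronic summits (35.6% and 34.8%) and was present at 42.3% of near intronic summits. The DREF letters TATCGATA, typical of housekeeping promoters, stood at 0.300% of far intronic, 0.365% of near intronic and 4.96% of promoter summits. Of the same windows around all IDR summits, 3.05% held ACATTCCA, 23.5% AATTCC, 3.65% CTACTC, 29.2% GAGAG, 7.20% TGTTTAC, 2.86% TGACTCA, 11.4% TAATTA, 3.00% ATGCAAAT, 39.4% GATAA and 2.11% TATCGATA. A match is a run of letters and does not show that the named factor was bound. The other motifs had summit to flank ratios between 0.741 (Runx letters AACCACA) and 2.33 (Grainyhead letters AACCGGTT, present at only 0.729% of far intronic summits).

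Peaks deep in introns were found again in the replicates as often as those nearer to a start. A summit lay within 100 bp in every replicate list for 2156 far intronic peaks, or 92.5% (91.3 to 93.5), against 92.7% (91.6 to 93.7) of near intronic and 89.3% (88.3 to 90.3) of promoter peaks. A further 159 were found in 2 replicates, 16 in 1 and 1 in none. The replicate lists are longer than the IDR list, with 30000 peaks each, and they were an input to the IDR list, so these shares describe position and are not an independent check. Median offsets between the IDR summit and the strongest replicate summit within 100 bp, where there was one, were 13, 14 and 8 bp in replicates 1, 2 and 3. Among only the top peaks of each replicate, 66.4% of far intronic peaks were found in all of them.

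Far intronic peaks were, as a class, weaker than those nearer to start sites. Their signal values in the IDR list ran from 308 to 13574 with a median of 513, against medians of 562 in near introns and 601 at promoters. The median rank, as a percent of the list where 0 is strongest, was 55.6% for far introns, 49.0% for near introns and 44.9% for promoters. In replicates 1, 2 and 3 far introns were 7.50, 5.61 and 6.34 percentage points weaker in rank than near introns (exact permutation p = 0.25, 3 of 3 replicates). Of the far intronic peaks 160 were among the 1000 strongest of the list, or 6.86%, against 9.53% of near intronic and 12.1% of promoter peaks. Intergenic peaks were about as weak, with a median signal value of 500, a median rank of 57.2% and 6.26% among the 1000 strongest. The far intronic minus the intergenic median rank was 0.152, -0.877 and -1.76 percentage points in replicates 1, 2 and 3 (exact permutation p = 0.5). At the 3000 bp boundary itself, the 101 peaks up to 200 bp beyond it had a median signal value of 621 and a core in 20.8%, and the 110 intronic peaks up to 200 bp short of it had a median of 514 and a core in 28.2%.

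The density of summits fell with distance from annotated start sites. Far introns held 64.7 summits per Mb of sequence that meets the rule, against 147 per Mb in near introns and 222 per Mb near start sites, though the sequence between genes held fewer, at 36.8 per Mb. The replicate means were 63.2 ± 4.44 per Mb in far introns and 145 ± 5.57 per Mb in near introns (SD, n = 3, exact permutation p = 0.25). Inside far introns the density was 99.2 per Mb up to 5000 bp (772 peaks), 86.0 from there to 10000 bp (952 peaks), 55.9 to 20000 bp (479 peaks), 26.5 to 40000 bp (109 peaks) and 4.41 beyond (20 peaks, the farthest at 60833 bp). The share with a core did not follow it, with 21.4%, 24.1%, 24.6% and 20.2% in the first 4 of these bins and 6 of 20 peaks in the last. The same fall was seen outside repeats. On bases that the RefSeq genome does not mask as repeats, the replicates averaged 104 ± 8.45, 87.1 ± 5.59, 60.0 ± 3.77, 30.2 ± 1.08 and 5.65 ± 0.707 summits per Mb over the same 5 bins. Within genes, the first intron of the canonical transcript held 849 peaks at 108 per Mb, the second 720 at 78.1 per Mb, and the third or later introns 544 at 32.7 per Mb. The far intron sequence counted here includes the very long genes without a peak described below. Read placement in those genes was not tested, and no density was computed without them. The X had 52.5 far intronic summits per Mb and the large autosomal arms between 62.4 and 76.3, while chromosome 4 had 2 such peaks, or 5.34 per Mb.

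**Figure D3:**
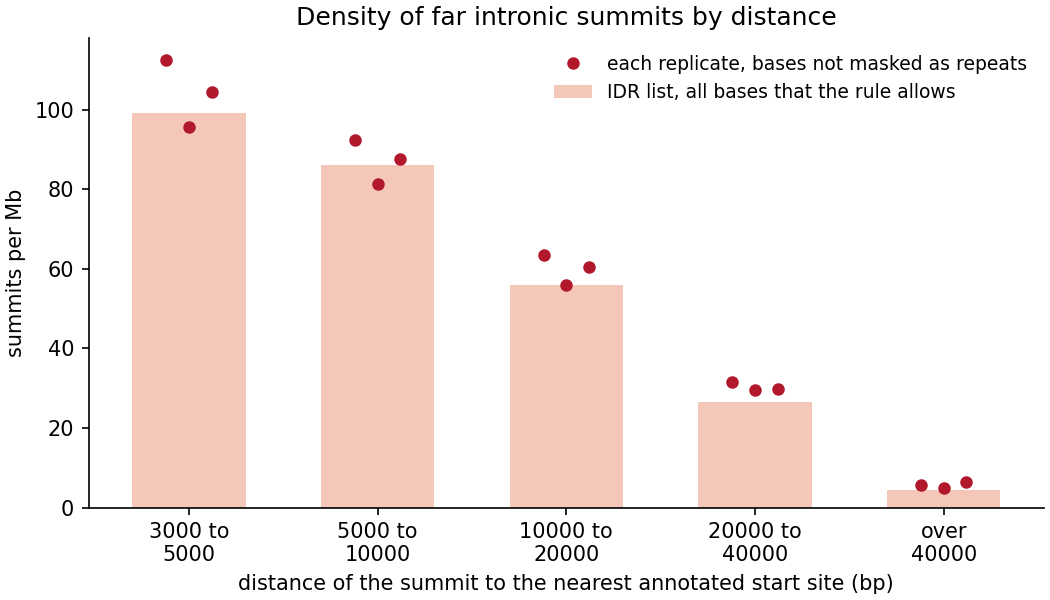
Far intronic summits per Mb against distance to the nearest annotated start site. Bars give the IDR list over all bases that meet the rule, and points give each replicate's top peaks over bases not masked as repeats. Density falls from each bin to the next, in the IDR list and in each replicate.

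The genes with most sequence that meets the rule differed widely in what they held. Of the 15 with most, 9 had no far intronic peak and 6 had 40 between them. Myo81F (chromosome 3R, 567076 to 2532932 on dm6) had 1926525 bp of such sequence and no far intronic peak, and Pzl (695938 bp), lovit (423312 bp), CG17684 (384191 bp) and DIP-lambda (373791 bp), the next in length, had none either. The next, kirre, which encodes an adhesion protein of muscle founder cells, had 14 peaks in 262395 bp, and pum, a translational repressor gene, had 13 in 138965 bp. The ranking by length was added after the values were seen. All 9 genes without a peak, which include Snap25, l(3)80Fg, Gprk1 and Dbp80, lie toward the centromere end of their arms. The 6 genes with a peak do not. How far reads could be placed near the centromeres was not tested.

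The start site nearest to a far intronic peak was often not that of its host. It belonged to the host gene for 1466 peaks (62.9%) and to another gene for 866, of which 487 are protein-coding and 379 are not. The median distance to the nearest start site was 6532.5 bp, and 8137.5 bp to the nearest start of the host. The distance between the exons on either side had a median of 12826.5 bp. Another IDR summit lay within 1000 bp of 36.2% of far intronic peaks, against 43.0% of near intronic ones. A peak lay in more than 1 gene in 142 cases. The host named below is the gene around the summit, and which gene a peak acts on was not measured.

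The strongest far intronic peak lay in kibra, which encodes a scaffold protein that activates the Hippo pathway upstream of its kinases. The peak at chr3R:14712625-14715394 ranked 6 of all peaks in the IDR list and 6 in every replicate, with its summit 9931 bp from the nearest start site in the first intron of kibra. The gene held 18 far intronic peaks, counted as summits, of which 6 had a core. Several of them shared an interval: the one of rank 6 also held the summits of ranks 401 and 2440. Its next strongest, 7910 bp from the start, ranked 19 in the IDR list and 17, 40 and 16 in replicates 1, 2 and 3. A further one had 4 cores within 100 bp of its summit. The plot of summits along kibra shows them spread over most of the intron, with values from 377 to 13574. With 97.2 far intronic summits per 100 kb, kibra was the densest of the genes with over 10000 bp of sequence that meets the rule. The same gene also had a promoter peak of rank 21 and near intronic peaks, the strongest of rank 53.

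**Figure D4:**
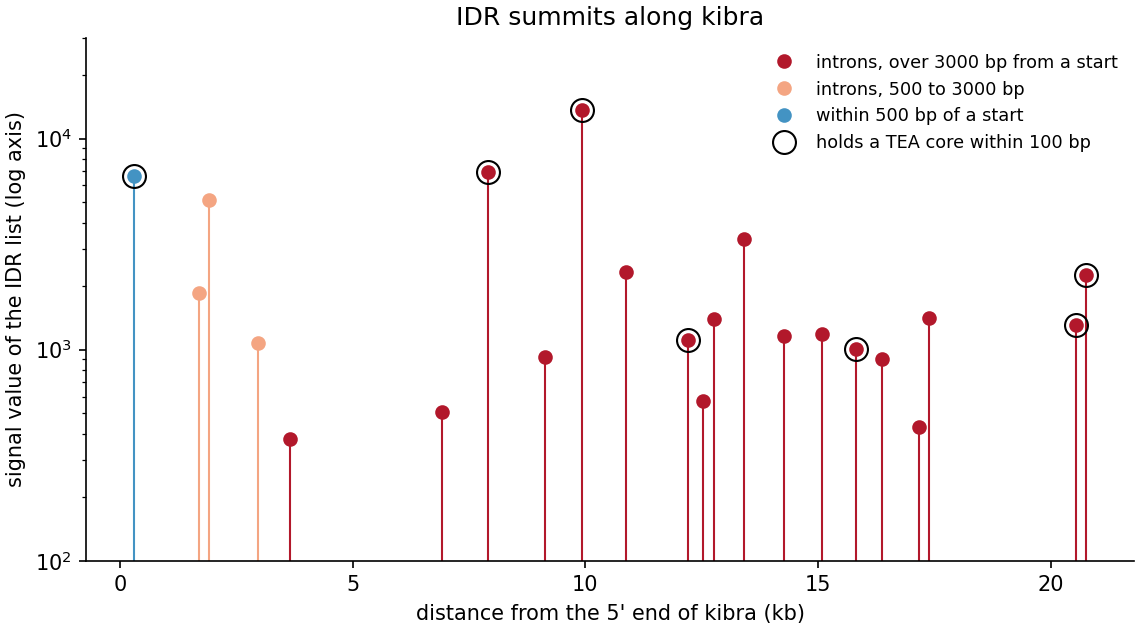
Signal value in the IDR list (log axis) of each IDR summit in kibra against its distance in kb from the 5′ end of the gene. Colours give the class of the summit, and rings mark summits with CATTCC within 100 bp. The far intronic summit at 9931 bp is the highest, and 6 of the 18 far intronic summits are ringed.

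The hosts of the other strongest peaks include regulators of growth, muscle and hormone response. Taking the strongest peak of each host, the 25 strongest hosts had ranks 6 to 243 in the IDR list, all 25 peaks were found in every replicate, and the weakest replicate rank among them was 420. Of these 25 peaks 14 had a core, and the nearest start site was the host's in 9. Mef2, the MADS-box factor that drives muscle differentiation, had a peak of rank 23 (24, 27 and 22 in replicates 1, 2 and 3) with no exact core. sima, the fly HIF-alpha subunit of the hypoxia response, had a peak of rank 30 (28, 41 and 29), whose core is shown above. ftz-f1, an orphan nuclear receptor, followed at rank 43 (65, 33 and 45). The peak in nmo, which encodes the Nemo kinase, ranked 44 (41, 57 and 44) and lay 4166 bp from a tRNA gene but 45406 bp from the nearest start of nmo. The peak in hth, which encodes the homeodomain partner Homothorax, ranked 62 (69, 53 and 57) and was 31157 bp from any start site. Ranks moved more for some other hosts. CG8888 had rank 69 in the IDR list and 168, 19 and 87 in replicates 1, 2 and 3, CG32486 had 133, 420 and 168, and ds had 82, 170 and 83.

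Hippo-pathway and polarity genes recur further down the same ranking. The peak in ds, the cadherin Dachsous that binds Fat, ranked 98, that in scrib, a basolateral polarity scaffold, ranked 118, and that in wts, the Warts kinase that phosphorylates Yorkie, ranked 133. Signalling genes were Gprk2, which encodes a kinase of G protein-coupled receptors, at 63 and the insulin receptor InR at 80. The kinase gene mnb ranked 105 and the BMP-type ligand gene dpp 151. Transcriptional regulators were the Atrophin gene Gug at 83, the Hox gene abd-A at 139, the ecdysone-induced nuclear receptor Eip75B at 170 and ush, a GATA-factor partner, at 243. Cytoskeletal hosts were Lasp at 99, klar at 155 and Myo10A at 199. The others were Fili at 127, CG46467 at 156, CG32982 at 166 and CG32486 at 193.

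Far intronic peaks were spread over many genes, and some held several. Of the 2901 protein-coding genes with any sequence that meets the rule, 740 (25.5%) held at least 1 far intronic peak. Among the 857 genes with over 10000 bp of it the share was 50.8%, or 435 genes. Of the 740, 273 had 1 peak, 306 had 2 to 4, 124 had 5 to 9, and 37 had 10 or more, which were the hosts of 497 peaks when each peak was given to 1 host. The 10 genes with most were sbb, a corepressor (27 peaks), Eip75B (26), the Wingless receptor fz2 (19), kibra, hth and tara (18 each), bun (17), and luna, CG46467 and Glut4EF (16 each). CG46467 and Glut4EF overlap and share the same 16 peaks. The share with a core varied among them: 1 of the 26 peaks in Eip75B and 9 of the 16 in luna, a Krüppel-like factor, had one.

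As lists, genes of the signalling and growth-control pathways named here carried far intronic peaks more densely than protein-coding genes in general. The latter held 6.59 per 100 kb of sequence that meets the rule. That general density counts the very long genes without a peak described above, such as Myo81F with 1926525 bp, which lower it. Read placement in those genes was not tested, and no general density was computed without them. Counts of genes with a peak below are to be read against 25.5% of all genes with such sequence, or 50.8% of long ones. Long introns offer more room. Among genes with over 10000 bp of it, 3 of 3 in the Hippo list held a peak, and 9 of 10 targets of Yorkie and Scalloped. The same counts were 5 of 5 for Dpp, 6 of 7 for Wingless and 8 of 8 for Notch genes. They were 6 of 6 for EGF-receptor and FGF genes and 3 of 3 for hypoxia and insulin genes. Of 22 Hippo-pathway genes, 12 had such sequence and 8 held a peak, at 26.1 per 100 kb, and in replicates 1, 2 and 3 at 26.8, 28.2 and 26.1. Without kibra the density was 15.4. wts held 6 peaks, ds 4, vg and ex 3 each, and app, ft and Tgi 1 each. The sequence of sd itself that meets the rule, 1859 bp, held none, and that of dachs, Zyx and jub none either. Of 16 targets of Yorkie and Scalloped 13 held a peak, at 26.3 per 100 kb. They share kibra and ex with the pathway list, and others were hth with 18 peaks, InR with 12, dlp, a glypican, with 9, dally, another glypican, with 8 and Myc with 5, while CycE, wg and fog had none. Of 9 genes of the Dpp pathway 6 held a peak, at 45.0 per 100 kb, the densest of the 16 lists. They were shn, the zinc-finger factor of Dpp target repression (14 peaks), the receptor tkv and the modulator cv-2 (9 each), the inhibitory Smad Dad (8), the ligand dpp (4) and the antagonist sog (3). In the Wingless pathway 7 of 16 genes held a peak (16.2 per 100 kb), led by fz2 and by nkd, a feedback inhibitor, with 13. EGF-receptor and FGF pathway genes had one in 12 of 13 (23.8 per 100 kb), with the FGF ligands pyr and ths, the Ets repressor aop and Egfr highest in rank. Notch pathway genes had one in 9 of 11 (14.0 per 100 kb), with mam highest at rank 1057. Of 8 genes of hypoxia and insulin signalling 5 held a peak (30.01 per 100 kb): InR, foxo (7 peaks), sima (5), and Pdk1 and ImpL2 (2 each). The InR peaks also count among the targets of Yorkie and Scalloped, and without InR the density of this list was 23.1. Some other genes, such as bnl, vn and Ser, also stand in more than 1 list.

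The other lists ranged from above the general density of 6.59 per 100 kb to below it. Ecdysone and nuclear receptor genes had a far intronic peak in 8 of 16 (20.0 per 100 kb), with 26 peaks in Eip75B, 13 each in EcR and Hr4 and 11 each in ftz-f1 and Eip74EF. Muscle transcription factors had one in 7 of 14 (10.1 per 100 kb), Mef2 with 5 peaks, vg with 3 and org-1 with 2. Sarcomere and muscle attachment genes had one in 8 of 19 (12.6), with Zasp52 at 7 peaks. Tracheal and epidermal genes had one in 9 of 16 (10.9), polarity genes in 10 of 16 (10.1) and glial genes in 3 of 7 (11.9). Homeodomain genes had one in 13 of 28 (8.73), where hth held 18 peaks, Antp 7, Ubx 5 and abd-A 4. The same hth peaks count in the tracheal list and among the targets of Yorkie and Scalloped. Without hth the densities were 6.80 for homeodomain genes, 8.82 for tracheal and epidermal genes and 30.6 for those targets. Of genes with over 10000 bp of such sequence, 7 of 12 ecdysone and nuclear receptor genes and 3 of 5 muscle factors held a peak. So did 5 of 7 sarcomere and attachment genes, 8 of 9 tracheal and epidermal genes and 8 of 8 polarity genes. Glial genes had 2 of 2 and homeodomain genes 9 of 12. Neuronal recognition receptor genes held one in 20 of 45, and in 20 of the 42 with long introns, at 3.71 per 100 kb, with CadN, caps, Ten-m and fra highest in rank. Ion channel and transmitter receptor genes held one in 6 of 37, and in 5 of the 25 with over 10000 bp of such sequence, at 1.20 per 100 kb (1.30, 1.20 and 1.20 in replicates 1, 2 and 3). Those 6 were Ca-beta, Ih, 5-HT7, Shal, Shab and 5-HT1A. The lists were chosen by hand with earlier results of these data known, and no test of a list was made.

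**Figure D5:**
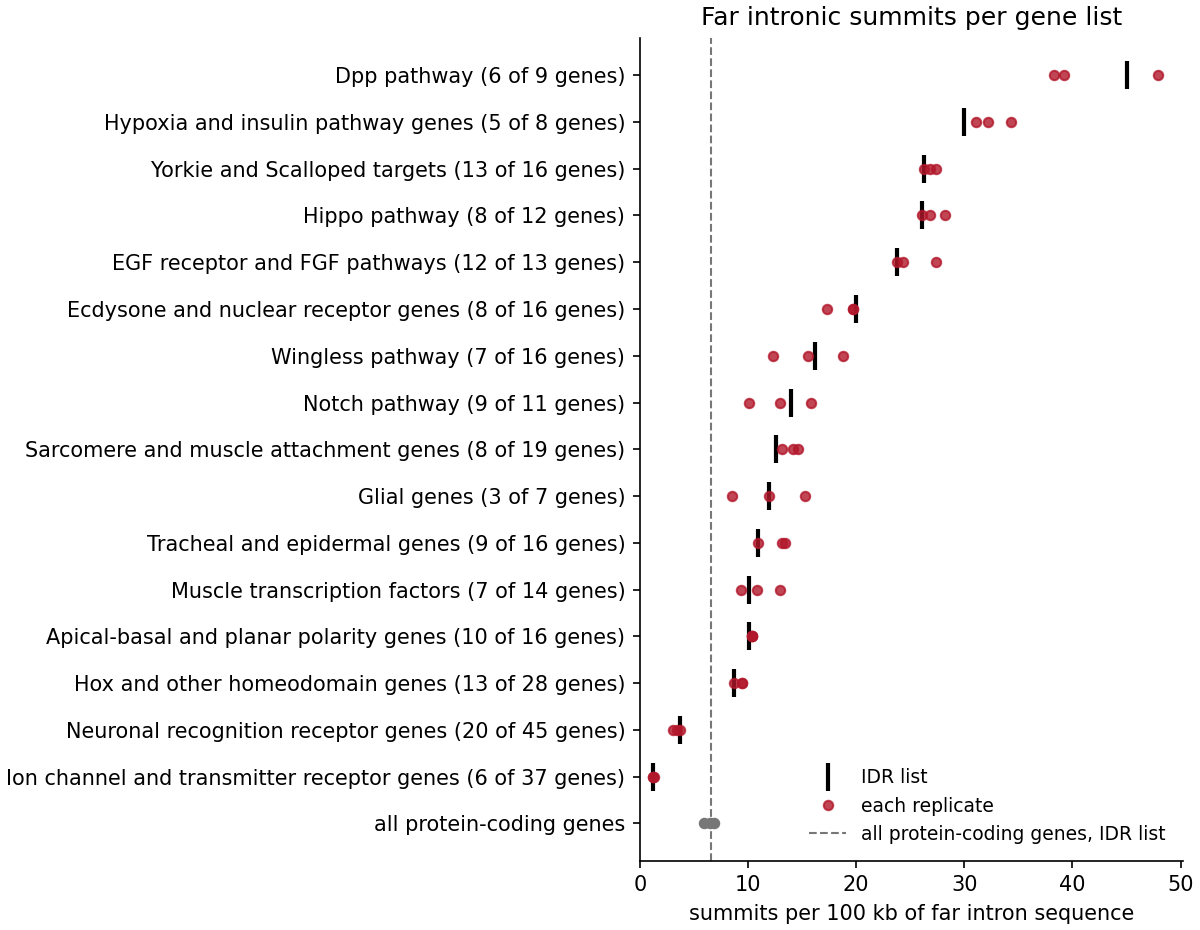
Far intronic summits per 100 kb of sequence that meets the rule, for 16 gene lists with the number of genes that hold one. Black bars are the IDR list, red points the top peaks of each replicate, and the dashed line marks 6.59 per 100 kb for all protein-coding genes. Dpp pathway genes lie at 45.0 and ion channel genes at 1.20.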

How the data were processed

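ChIP-seq peak lists on dm6 were analysed, 1 IDR list and 3 biological replicates. The authors derived every list from dm6 alignments and 1 control alignment (not analysed here), and the IDR list from the replicate and pooled lists, per the file headers. Not given in the sources used here are the caller, the aligner and the IDR cutoff. The signal value is deposited by the authors, on a scale of its own per list, and depth is unknown. Each list also carried the deposited summit offset, another column, which was added to the start to give the summit as a 1-based position, since offsets ran from 1. Gene models were Ensembl 115 (BDGP6.54) without transposable elements, and bases were RefSeq's.

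The members and gene lists were chosen with earlier results of these data known. Of 380 list entries, 374 matched by symbol and 6 by synonym, and 1 further list and 1 gene are not reported here. Named genes were the hosts of the 25 strongest peaks (1 per host), the 10 genes with most, and up to 4 per list by strongest peak, with further genes named to complete a count. Replicates were compared through their top 10553 peaks, with flanks left out within 500 bp of another summit. The exact permutation test swapped values within replicates. Scripts were checked on simulated data. Alternatives were other distances, gene sets, windows, motif forms, signal cuts and replicates left out. Scripts ran in Python 3.11.15 with scipy 1.17.1, numpy 2.4.6, matplotlib 3.10.9 and pandas 2.3.3.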

Additional observations from a re-analysis of the deposited data

How the results depend on the processing

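Of 63 alternatives for the main results none turned a direction, 13 were counted as moved and 50 were not. For a difference, not moved means only that its sign was kept, and some sizes changed much. The core excess over flanks, 14.7 points, was 2.91 points with ACATTCCA. The excess over near introns, 3.75 points, was 0.973 points with ACATTCCA and 10.2 points in the strongest signal group. Counts were allowed a wide range, such as 1560 peaks over 5000 bp from a start site. The number of far intronic peaks was 2332, and 1036 with a signal value above the median. The share with a core, 23.2%, was 24.0% over 5000 bp from a start site, 28.4% with a signal value above the median and 24.0% with 1 summit per interval. Peaks found in all replicates, 92.5% within 100 bp, were 69.3% within 50 bp, 98.0% within 200 bp, 66.4% in top peaks only, and 93.8 to 95.9% without 1 replicate. Genes with a peak were 740, and 435 among those with over 10000 bp of sequence that meets the rule. Far intronic density over near intronic density was 0.440, 0.384 with a signal value above the median and 0.466 on bases not masked as repeats. The cause was not tested. The subsets by masking, by gene length and without overlapping cores, and lists without their leading gene, were chosen after seeing the data. With 3 replicates no permutation test, each paired within replicates, could pass 0.05, and depth is unknown.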
